A study of Mus musculus with 9 samples.

Results

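The 10 genes described here are keratins and junction genes of simple epithelia that mouse embryonic stem cells also transcribe: the keratins Krt7, Krt8, Krt18 and Krt19, the 14-3-3 protein gene Sfn, the claudins Cldn4, Cldn6 and Cldn7, and the adhesion genes Epcam and Cdh1. They were taken from the deposited expression table by gene name, 10 of 24044 named rows, and each name stood on 1 row. All 10 passed the filter of FPKM (a fragment count scaled to transcript length and to library size) of 1 or more in at least 3 libraries, which 12711 named rows passed. The set had been selected on the FPKM of the 3 conditions themselves, so the differences between conditions in these 10 genes are given as a description without a test.

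The study grew 3 mouse embryonic stem cell lines, E14, v6.5 and Oct4 GiP, in 3 conditions called Serum, 2i and Paused. Every line was kept on gelatin for 2 weeks at passages 20 to 23. The Paused cells received 200 nM INK128, an inhibitor of the kinase mTor, over those 2 weeks. The labels do not give the composition of the 2i medium (a name that in this field stands for a pair of kinase inhibitors) or of the base medium of the Paused cells, and all 3 lines carry no other treatment in the labels. Each line gave 1 library in each condition, 9 in all, made from mRNA purified out of 250 ng of total RNA, and every sample also received ERCC control RNA. The replicates of a condition are therefore 3 different lines. The fit takes out differences in level between lines, so p-values between conditions rest on how far the condition differences vary from line to line. With 1 library per line and condition, that variation cannot be separated from variation between libraries.

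Keratins are the intermediate filament proteins of epithelial cells, and they assemble only as pairs of a type II keratin (Krt7 and Krt8 here) with a type I keratin (Krt18 and Krt19). Krt8 and Krt18 are the first keratins made in the mouse embryo, in the outer cells that become trophectoderm. Claudins seal tight junctions, Epcam is a surface glycoprotein that binds and stabilises some claudins, and Cdh1 encodes E-cadherin, the adherens junction protein that holds embryonic stem cells together in colonies.

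Krt8 and Krt18 lie side by side on mouse chromosome 15 and start 23698 bases apart on opposite strands. In the mm10 annotation Krt8 spans chr15:101996698-102004482 on the minus strand and Krt18 spans chr15:102028180-102032027 on the plus strand, while Krt7 lies on the same chromosome at chr15:101411043-101430313 (plus). The others are Krt19 at chr11:100140810-100148665 (minus), Sfn at chr4:133600556-133602168 (minus), Cldn4 at chr5:134945119-134946934 (minus), Cldn6 at chr17:23679249-23682446 (plus), Cldn7 at chr11:69964779-69967885 (plus) and Epcam at chr17:87635979-87651129 (plus). Levels are given per gene, with no split by exon. Promoter sequences from RefSeq (GRCm38.p6), running from 250 bases before to 50 after the annotated start, matched 8 of the 10 genes, all but Krt19 and Cdh1. The 5 promoters below are shown because they belong to the main keratin pair, to Sfn, and to Cldn6 and Epcam, which were lower in 2i than in Paused in every line. Capitals mark matches to the motifs named after them.
Krt8, chr15:102004293-102004592, minus strand: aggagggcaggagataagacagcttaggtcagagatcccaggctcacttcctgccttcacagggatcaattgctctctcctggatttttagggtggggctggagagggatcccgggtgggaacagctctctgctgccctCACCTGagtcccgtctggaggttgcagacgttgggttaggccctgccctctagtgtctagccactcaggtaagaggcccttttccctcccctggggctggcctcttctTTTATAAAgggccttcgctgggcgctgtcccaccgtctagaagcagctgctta
Krt18, chr15:102027966-102028265, plus strand: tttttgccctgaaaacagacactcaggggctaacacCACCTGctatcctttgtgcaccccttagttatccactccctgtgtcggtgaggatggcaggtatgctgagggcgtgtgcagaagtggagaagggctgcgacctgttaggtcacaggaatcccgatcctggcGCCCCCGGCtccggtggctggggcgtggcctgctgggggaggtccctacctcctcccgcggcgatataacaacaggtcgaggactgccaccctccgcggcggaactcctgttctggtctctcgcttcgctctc
Sfn, chr4:133602119-133602418, minus strand: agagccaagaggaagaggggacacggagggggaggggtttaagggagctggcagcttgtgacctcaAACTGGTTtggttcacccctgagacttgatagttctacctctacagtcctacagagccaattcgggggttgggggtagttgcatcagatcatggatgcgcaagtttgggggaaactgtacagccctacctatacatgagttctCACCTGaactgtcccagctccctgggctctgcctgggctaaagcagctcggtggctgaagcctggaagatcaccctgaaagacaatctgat
Cldn6, chr17:23679115-23679414, plus strand: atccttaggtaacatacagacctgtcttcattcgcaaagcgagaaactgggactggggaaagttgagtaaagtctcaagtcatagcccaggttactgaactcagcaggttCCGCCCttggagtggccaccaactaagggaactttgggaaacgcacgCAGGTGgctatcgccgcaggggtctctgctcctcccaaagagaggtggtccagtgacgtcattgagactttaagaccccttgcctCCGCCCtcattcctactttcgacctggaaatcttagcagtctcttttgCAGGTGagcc
Epcam, chr17:87635729-87636028, plus strand: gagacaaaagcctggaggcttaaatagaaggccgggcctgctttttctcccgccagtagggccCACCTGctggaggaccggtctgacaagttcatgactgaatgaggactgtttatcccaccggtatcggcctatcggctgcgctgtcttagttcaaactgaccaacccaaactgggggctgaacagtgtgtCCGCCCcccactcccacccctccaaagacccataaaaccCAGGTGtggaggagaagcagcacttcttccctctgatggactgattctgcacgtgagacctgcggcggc

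The 6 motifs were searched on both strands. They were the TATA box (TATAAA), the GC box of Sp and Klf factors (GGGCGG), the grainyhead site (AACCNGTT), the AP-1 site (TGANTCA), the AP-2 site (GCCNNNGGC) and the E-box bound by Snail and Zeb factors (CACCTG). The E-box letters stood in 8 of the 9 windows of these genes (Cldn7 has 2 windows) and in 20.2% of the 32851 promoter windows of the same length. The GC box stood in 5 of the 9 windows and in 35.7% of all windows. The AP-2 letters stood in Krt7 and Krt18 (16.6% of all windows), the AP-1 letters in Cldn4 (7.81%), the grainyhead letters in Sfn (2.09%) and the TATA letters in Krt8 (13.6%). In Krt8 the TATA letters matched on both strands in overlapping positions. In Sfn the grainyhead letters began 184 bases before the start. In Krt7 an AP-2 match and a GC box overlapped. These windows held 52.0% to 66.3% G and C, against a median of 52.7% over all windows. A match is a stretch of letters and no measured binding.

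The simple keratins and Sfn were high in Serum and low in both other conditions. Krt8 FPKM in E14, v6.5 and Oct4 GiP was 161, 24.4 and 62.6 in Serum, 6.72, 12.8 and 11.3 in 2i, and 9.58, 7.16 and 3.45 in Paused. Its partner Krt18 stood at 108, 18.7 and 36.4 in Serum, 4.21, 3.03 and 1.69 in 2i, and 13.2, 11.7 and 2.63 in Paused, in the same order of lines. In both genes the lowest Serum library, v6.5, lay above every 2i and every Paused library. In Serum, E14 held the most of each and v6.5 the least, a difference of several-fold between lines of 1 condition.

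Krt19, the type I keratin of many ducts and of trophectoderm, was at 55.4, 5.39 and 27.6 FPKM in Serum, 0.452, 0.633 and 0.473 in 2i, and 3.58, 1.91 and 0.780 in Paused. Krt7, the type II keratin of simple and ductal epithelium, was the least abundant of the 10 in Serum and Paused, with 3.53, 1.42 and 2.01 FPKM in Serum, 0.881, 0.231 and 0.483 in 2i, and 0.551, 0.471 and 0.240 in Paused. Sfn, the 14-3-3 protein sigma of epithelia and a p53 target, gave 130, 72.3 and 115 FPKM in Serum, 19.5, 55.3 and 28.8 in 2i, and 22.1, 22.1 and 17.3 in Paused. Groups did not overlap between Serum and either other condition for any of these 3 genes. The share of all tested genes without such overlap was not counted, and the 10 genes were chosen on these values. Nothing is therefore read from a lack of overlap in any of the 10. Sfn in v6.5 was the exception to a deep drop in 2i, at 55.3 against 72.3 FPKM in Serum.

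**Figure D1:**
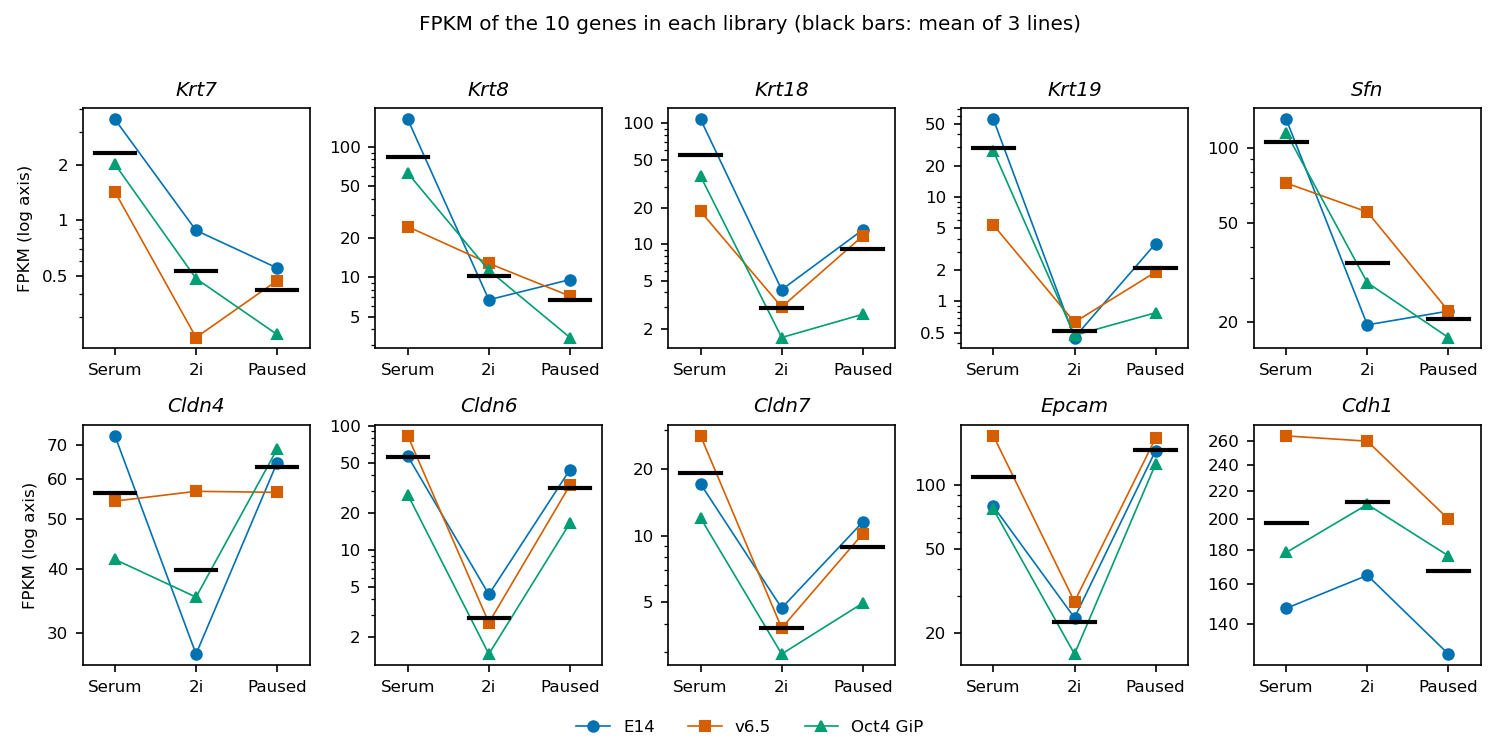
FPKM of each of the 10 genes (log axis) in Serum, 2i and Paused, with 1 point per library, colours and shapes for the 3 lines, and a black bar for the mean of 3 lines. Krt7, Krt8, Krt18, Krt19 and Sfn drop from Serum to both other conditions, Cldn6, Cldn7 and Epcam are lowest in 2i in every line, and Cdh1 stays between 126 and 265 FPKM.

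As means over lines (SD, n = 3), Krt8 was 82.8 ± 70.7 FPKM in Serum, 10.2 ± 3.15 in 2i and 6.73 ± 3.09 in Paused. The fitted log2 fold change of FPKM + 1 from Serum to Paused was −3.14 ± 0.64 (SE) for Krt8, −2.31 ± 0.52 for Krt18, −2.92 ± 0.64 for Krt19, −1.18 ± 0.18 for Krt7 and −2.28 ± 0.40 for Sfn. From Serum to 2i the same genes stood at −2.55, −3.49, −3.84, −1.09 and −1.67. All 5 genes were lower than Serum in each of the 3 lines in both comparisons, as were 32.4% of all tested genes in Paused and 30.0% in 2i. The pseudocount of 1 compresses Krt7, whose change from Serum to Paused is −2.18 with a pseudocount of 0.1.

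The size of the drop differed between lines. Krt8 in Paused was lower than in Serum by 16.8-fold in E14 and 18.1-fold in Oct4 GiP, and by 3.40-fold in v6.5. For Krt19 the factors were 15.5, 35.4 and 2.82 in E14, Oct4 GiP and v6.5. In 2i, Krt19 was 123-fold lower than Serum in E14, 58.3-fold in Oct4 GiP and 8.53-fold in v6.5. With 1 library per line and condition, whether the lines respond differently cannot be tested.

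Summed over the 4 keratins, the Serum libraries held 328 FPKM (E14), 49.8 FPKM (v6.5) and 129 FPKM (Oct4 GiP). The sum was 12.3, 16.7 and 13.9 in 2i and 26.9, 21.3 and 7.11 in Paused. The 2i libraries thus sat within a narrow range, although their Serum counterparts differed by several-fold.

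The balance of the partners also differed between conditions, and a ratio within a library does not depend on how libraries are scaled. Krt8 over Krt18 was 1.499, 1.31 and 1.72 in Serum (E14, v6.5 and Oct4 GiP), 1.60, 4.22 and 6.66 in 2i, and 0.728, 0.612 and 1.31 in Paused. Every line had its lowest ratio in Paused and its highest in 2i. In E14 the Serum and 2i ratios lay close together, and the groups overlapped in Serum against Paused by the Oct4 GiP value alone. Over both types, Krt7 plus Krt8 against Krt18 plus Krt19 was 1.03 ± 0.036 (SD, n = 3) in Serum, 3.54 ± 1.90 in 2i and 0.749 ± 0.289 in Paused. Among these 4 keratins, Serum cells of all 3 lines thus held nearly equal summed FPKM of type II and type I, at 1.01, 1.07 and 1.01. Other keratins were left out of this ratio, among them Krt42. Its mean was 31.35 ± 23.96 FPKM (SD, n = 3) in Serum, 14.7 ± 11.7 in 2i and 14.1 ± 7.76 in Paused. Between 2i and Paused, Krt18 and Krt19 were higher in Paused in all 3 lines, and Krt8 was higher in E14 and lower in the other lines.

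Some of these levels rest on sequence that other genes share. Of the 50-base windows of the longest Krt8 transcript, 26.9% also occur in the pseudogene Krt8-ps, and 15.0% of those of Sfn occur in Gm5279, Gm7850 or Ywhaq-ps1. For Krt18 the share was 0.72%, and for the other 7 genes 0%. Exons of Krt7 and Krt8 overlap Gm671 and Gm36026 on the opposite strand. How fragments shared by copies or strands were assigned was not given in the sources used here, so Krt7, Krt8 and Sfn levels are uncertain to that extent.

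Cldn6, Cldn7 and Epcam followed another course: they were low in 2i in every line. In Paused, Epcam stood near or above its Serum level, while Cldn6 and Cldn7 lay between 2i and Serum in every line. Cldn6, a claudin typical of pluripotent cells and early embryonic epithelia, was at 56.9, 82.9 and 27.9 FPKM in Serum (E14, v6.5 and Oct4 GiP), 4.39, 2.60 and 1.45 in 2i, and 44.3, 33.3 and 16.5 in Paused. Cldn7, a claudin found along the lateral membrane as well as in tight junctions, was at 17.1, 28.2 and 12 in Serum, 4.71, 3.83 and 2.92 in 2i, and 11.5, 10.2 and 4.96 in Paused. Epcam was at 79.4, 171 and 76.9 in Serum, 23.5, 28.1 and 15.8 in 2i, and 146, 167 and 126 in Paused. In each of these genes every 2i library lay below every library of the other conditions. Serum and Paused overlapped for Cldn6 and Epcam and did not for Cldn7.

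The fitted log2 fold change from Serum to 2i was −3.84 ± 0.22 (SE) for Cldn6, −2.00 ± 0.22 for Cldn7 and −2.16 ± 0.19 for Epcam. From 2i to Paused it was 3.05 ± 0.22, 0.98 ± 0.22 and 2.68 ± 0.19. In FPKM, Cldn6 was 10.1-fold, 12.8-fold and 11.3-fold higher in Paused than in 2i in E14, v6.5 and Oct4 GiP, so the lines stood close together here. Against Serum, Paused held Cldn6 at −0.79 ± 0.22 and Cldn7 at −1.01 ± 0.22, lower in all 3 lines. Epcam stood at 0.51 ± 0.19 against Serum, higher in E14 and Oct4 GiP and near equal in v6.5, and this sign turned to −0.41 on the authors' normalized scale.

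Against Serum, Cldn4 and Cdh1 moved least of the 10. Cldn4, a claudin of simple epithelia and trophectoderm, was at 72.8, 54.3 and 41.8 FPKM in Serum, 27.3, 56.7 and 35.3 in 2i, and 64.6, 56.5 and 68.6 in Paused. Cdh1 was the most abundant of the 10 in every condition by its mean, at 147, 265 and 178 FPKM in Serum, 165, 260.2 and 210 in 2i, and 126, 200 and 176 in Paused. The conditions overlapped in both genes in all 3 comparisons. Their changes from Serum to Paused were 0.20 ± 0.30 (SE) and −0.22 ± 0.09, and from Serum to 2i −0.52 ± 0.30 and 0.12 ± 0.09. From 2i to Paused they were 0.72 ± 0.30 and −0.34 ± 0.09, and Cdh1 was lower in Paused in all 3 lines. On the authors' normalized scale the Cldn4 change in Paused turned to −0.73 and the Cdh1 change in 2i to −0.25. Without the Oct4 GiP Serum library the Cldn4 value in Paused was −0.001.

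**Figure D2:**
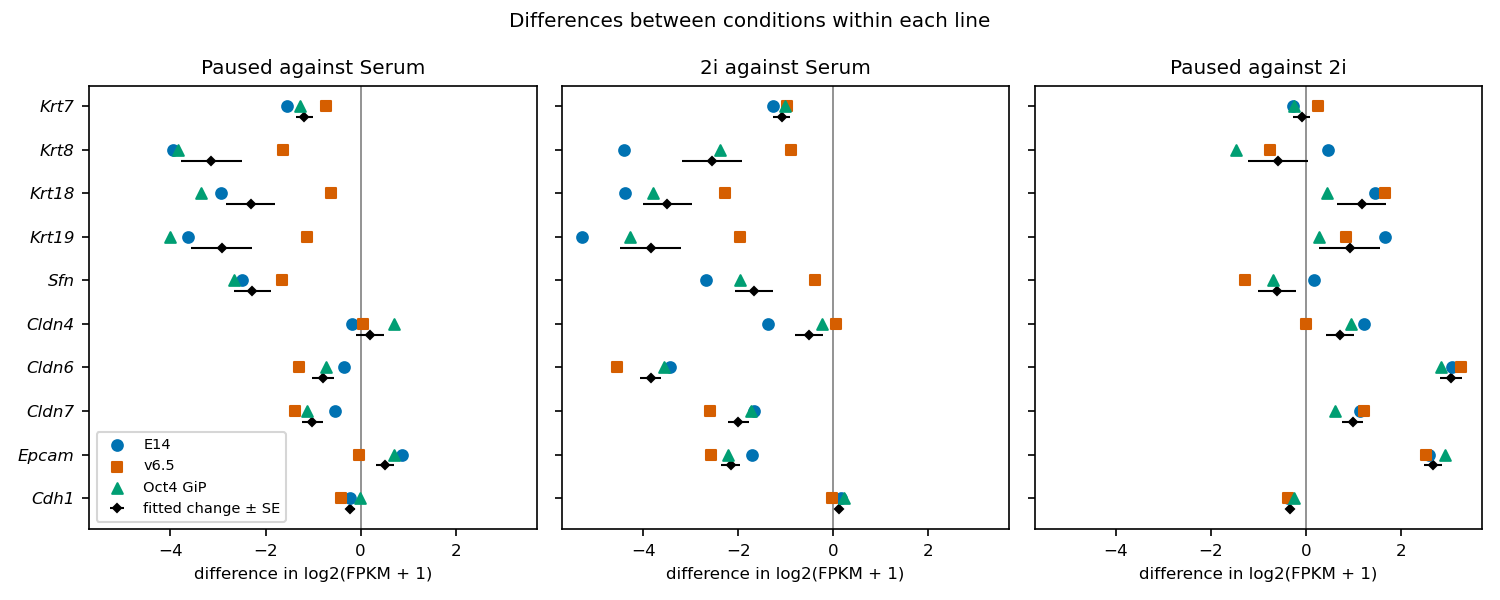
Difference in log2(FPKM + 1) of each gene within E14, v6.5 and Oct4 GiP (coloured points) and the fitted change with its SE (black diamonds), for Paused against Serum, 2i against Serum and Paused against 2i. In the third panel Cldn6 and Epcam sit between 2.53 and 3.25 in all lines, and in the first the keratins and Sfn lie to the left of 0 in all lines, with v6.5 nearest to 0.

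The composition of the 3 claudins shifted accordingly. Cldn4 made up 49.6%, 32.8% and 51.2% of their summed FPKM in Serum, 75.0%, 89.8% and 89.0% in 2i and 53.6%, 56.5% and 76.2% in Paused. Cldn6 made up 38.8%, 50.1% and 34.1% in Serum, and 12.1%, 4.11% and 3.67% in 2i. The ratio of Epcam to Cdh1, both plasma membrane adhesion genes, was 0.539 ± 0.108 (SD, n = 3) in Serum, 0.109 ± 0.034 in 2i and 0.903 ± 0.227 in Paused, with no overlap between the 3 conditions.

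Ordered by mean FPKM, Serum ran Cdh1, Epcam, Sfn, Krt8, Cldn4, Cldn6, Krt18, Krt19, Cldn7 and Krt7. In 2i the order was Cdh1, Cldn4, Sfn, Epcam, Krt8, Cldn7, Krt18, Cldn6, Krt7 and Krt19, and in Paused it was Cdh1, Epcam, Cldn4, Cldn6, Sfn, Krt18, Cldn7, Krt8, Krt19 and Krt7. Krt8 thus went from the fourth place in Serum to the eighth in Paused. Most neighbours in these orders overlapped over the lines. Those that did not were Cldn7 above Krt7 in Serum, Cdh1 above Cldn4, Epcam above Krt8, Krt8 above Cldn7 and Cldn6 above Krt7 in 2i, and Epcam above Cldn4, Cldn4 above Cldn6, Sfn above Krt18 and Krt19 above Krt7 in Paused.

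Set beside all genes, 6 of the 10 genes had an adjusted p under 0.05 as lower in Paused than in Serum and 0 as higher, where 10.5% of all tested genes were called lower and 7.64% higher. For 2i against Serum, 8 of the 10 were called lower and 0 higher, where 18.9% were called lower and 21.7% higher. For Paused against 2i, 3 were called higher (Cldn6, Cldn7 and Epcam) and 1 lower (Cdh1), where 19.8% were called higher and 24.6% lower. The genes were chosen by these same differences, so nothing is read from these counts or from the medians and ranks that follow. The median change of the 10 was −1.10 in Paused against Serum, −2.08 in 2i against Serum and 0.82 in Paused against 2i, beside −0.01, 0.02 and −0.03 over all tested genes. Krt8 was the 18th, Krt19 the 21st, Krt18 the 34th and Sfn the 35th from the lowest of the 12711 changes in Paused against Serum. Cldn6 had the 59th and Epcam the 79th highest change in Paused against 2i. The 3 comparisons share libraries, the Serum libraries standing in both comparisons with Serum.

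All of these values are in FPKM. The deposited table also holds normalized values that multiply a library's FPKM by 1 constant, on average 3.59 ± 0.17 (SD, n = 3) in Serum, 2.80 ± 0.36 in 2i and 1.88 ± 0.10 in Paused. On that scale the median change of all tested genes is −0.88 in Paused against Serum, −0.33 in 2i against Serum and −0.56 in Paused against 2i. The numbers of genes called higher and lower go from 971 and 1340 to 48 and 9779, from 2762 and 2399 to 1240 and 4538, and from 2517 and 3121 to 789 and 6922 in those comparisons. Centring each library on its median instead gives 886 and 1542, 2181 and 3263, and 3180 and 2645. Every drop of the keratins, Sfn, Cldn6 and Cldn7 from Serum kept its sign on these scales. Since the RNA is from bulk cultures, fewer cells with a transcript and less of it per cell cannot be told apart.

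The labels call all libraries embryonic stem cells. The 10 pluripotency markers summed to 4329 to 5728 FPKM in Serum, 4048 to 4786 in 2i and 6199 to 6696 in Paused, mostly Pou5f1 and Dppa5a. In Serum, Nanog was at 239, 42.8 and 185 FPKM (E14, v6.5 and Oct4 GiP), and Zfp42 at 599.5, 99.8 and 722. Esrrb was at 156, 25.2 and 144 there, and Tfcp2l1 at 49.6, 5.70 and 30.8. Pou5f1, Sox2 and Dppa5a were also lowest in v6.5 Serum among the Serum libraries, and Utf1, Tdgf1 and Fut4 were highest in it. Keratins also mark cells that leave the pluripotent state, so marker lists of such cells were summed in the same way. Of 16 trophoblast markers, the placental genes Tpbpa, Prl3d1 and Prl2c2 were listed at 0 in all 9 libraries. The list summed to 44.0 to 71.9 FPKM in Serum, 46.0 to 69.8 in 2i and 37.1 to 47.0 in Paused. Tfap2c and Cdh3 made up most of each sum. Tfap2c alone held 38.7, 17.7 and 33.2 FPKM in Serum (E14, v6.5 and Oct4 GiP), 58.8, 24.85 and 45.1 in 2i, and 24.6, 5.19 and 21.1 in Paused. By mean FPKM, 9 of the 16 markers reached 1 in Serum, 5 in 2i and 3 in Paused. Of the 9 tested trophoblast markers 3 were called lower and 0 higher in Paused against Serum. In 2i against Serum 4 were lower and 1 higher, where all tested genes gave the shares above. The higher marker, Tfap2a, passed the filter through its 2i libraries alone, so nothing is read from that call. The 11 surface ectoderm markers summed to 17.8 to 34.7, 16.5 to 19.9 and 12 to 28.3, and the 22 primitive endoderm markers to 148 to 198, 116 to 228 and 94.9 to 141. The 12 fibroblast markers summed to 140 (E14), 33.6 (v6.5) and 70.7 (Oct4 GiP) under Serum, to 5.93 to 8.49 in 2i and to 8.59 to 15.99 in Paused. Of the 5 fibroblast markers tested, 4 were called lower in Paused and 4 in 2i, with 1 higher in 2i. Of all tested genes 10.5% and 18.9% were called lower, and 21.7% higher in 2i. The gene Tagln made up most of the Serum sums, with 114, 22.5 and 55.8 FPKM in the same order of lines, and the other 11 markers together held 11.1 to 26.4 FPKM in Serum, 5.36 to 7.20 in 2i and 4.41 to 6.87 in Paused. Col1a2, Col3a1, Postn, Dcn and Lum were under 0.5 FPKM in every library. The markers called lower in both comparisons were Tagln, Acta2, Col1a1 and Thy1, and Pdgfrb was the marker called higher in 2i. Col1a1 passed the filter through its Serum libraries alone and Pdgfrb through its 2i libraries alone. The direction of these calls thus follows in part from the filter, and nothing is read from them. Col1a1 was at 6.96, 1.11 and 2.71 FPKM in Serum (E14, v6.5 and Oct4 GiP), 0.199, 0.468 and 0.808 in 2i, and 0.207, 0.175 and 0.129 in Paused. Thy1 was at 3.61, 2.76 and 1.21 in Serum. The fibroblast sum had the same order of lines in Serum as the 4 keratins and Sfn. So did the pluripotency, trophoblast, mesoderm, definitive endoderm and neural sums, while the surface ectoderm and primitive endoderm sums and Thy1 had other orders. Nothing is therefore read from a shared order of lines. The 10 mesoderm markers summed to 26.5 in E14 Serum and to 3.91 to 8.12 in the other libraries. Definitive endoderm (9 markers) summed to 177 to 271, 51.1 to 79.6 and 159 to 865, of which Trh alone was 262, 169 and 185 in Serum, 32.6, 31.7 and 59.3 in 2i, and 352, 153 and 859 in Paused; the other 8 held 5.43 to 24.8. Neural markers (9) summed to 91.8 to 125, 39.0 to 107 and 66.0 to 90.0. The part of any of these cells in the keratin levels was not tested.

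The FPKM of the 3 lines were also in view when the genes were chosen, so their differences between lines are given as a description. The limma F test over the 3 lines called 1.5% of all tested genes, Cdh1 among them, and nothing is read from that call, which was lost in each of the 9 fits that left out 1 library. Cdh1 was highest in v6.5, intermediate in Oct4 GiP and lowest in E14 in all 3 conditions. Averaged over conditions, v6.5 lay 0.72 and Oct4 GiP 0.37 above E14 in log2(FPKM + 1). The other 9 genes were not called. Cldn6, Cldn7 and Epcam were lowest in Oct4 GiP in all 3 conditions.

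Cdh1 lies at chr8:106603351-106670246 on the plus strand. Of the 8 genes with profiles closest to Cdh1 over the 9 libraries, 7 lie on the same chromosome (Cdc16, Golga7, Orc6, Enkd1, Slc7a6os, Fto and Smim7, with root mean square differences of 0.134 to 0.141 in log2), and Acrbp lies on chromosome 6. The other genes of chromosome 8 were then looked at, a step chosen after these values were seen. The 663 tested genes on it had a median of 0.46 (v6.5) and 0.45 (Oct4 GiP) above E14, while the medians of the other 19 chromosomes ran from −0.10 to 0.08 and from −0.09 to 0.03. The shift was present in each condition, at 0.41 to 0.48 for v6.5 and 0.37 to 0.51 for Oct4 GiP. The line test called 11.5% of the genes on chromosome 8 and 0.886% of those elsewhere. The chromosome median was thus near equal in the 2 lines, while Cdh1 lay 0.72 (v6.5) and 0.37 (Oct4 GiP) above E14. The part of the chromosome shift in the line difference of Cdh1 was not tested. Copy number was not measured here.

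**Figure D3:**
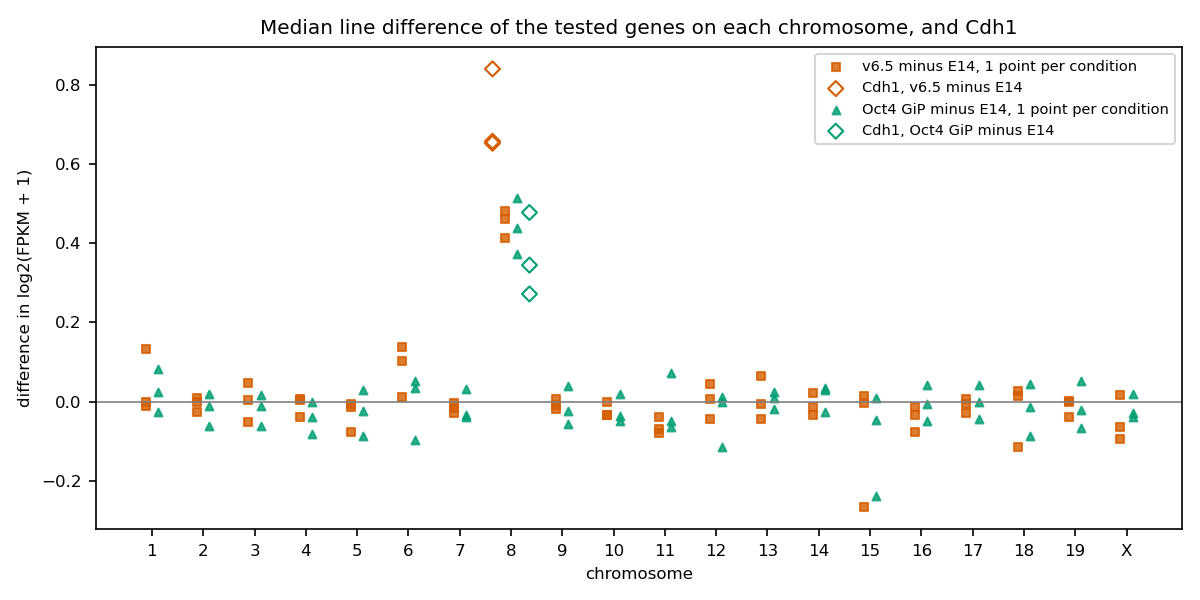
Median difference in log2(FPKM + 1) of v6.5 and Oct4 GiP from E14 over the tested genes of each chromosome, with 1 filled point per condition, and the same differences for Cdh1 (open diamonds). The chromosome 8 points of both lines lie between 0.37 and 0.51, and Cdh1 lies above them in v6.5 and among or below them in Oct4 GiP.

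Profiles close to that of Krt8 were found in the same way. Among the 12710 other tested genes, Sfn had rank 2 with a root mean square difference of 0.666, Krt19 rank 7 with 0.721, Krt18 rank 18 with 0.859 and Krt7 rank 55 with 1.02. The median over all genes was 1.59. Cldn6 and Epcam were among the genes farthest from Krt8, with ranks of 11023 and 11974. Krt18 stood nearer to Krt19 (0.516) than to its partner Krt8. Cldn6, Cldn7 and Epcam lay 0.808 to 0.950 from each other. Cldn7 also lay close to Krt7 (0.674), whose low level keeps its changes small on this scale. As the genes named here were selected together on the FPKM of these same libraries, nothing is read from their ranks or distances.

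The nearest gene that is no member was S100a6, a small calcium-binding protein, with 117, 33.7 and 115 FPKM in Serum, 8.31, 14.4 and 12.1 in 2i, and 17.3, 6.89 and 10.7 in Paused (E14, v6.5 and Oct4 GiP). Its change from Serum was −2.71 ± 0.46 (log2, SE) in Paused and −2.66 ± 0.46 in 2i. Anxa3, an annexin, came next, at −1.82 and −2.28, followed by Psors1c2. Klhl13, a substrate adaptor of a ubiquitin ligase on the X chromosome, stood at −2.13 and −2.06, and Igfbp3, which binds insulin-like growth factors, was also among the 8 nearest. The other 3 were Zscan4d, Zscan4b and Zscan4a, near-identical copies whose values are uncertain, at 20.9, 29.1 and 21.0 FPKM in E14 Serum. These 8 genes were picked for their likeness to Krt8 over these same 9 libraries, so a level below Serum follows from the choice and is given without a test.

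**Figure D4:**
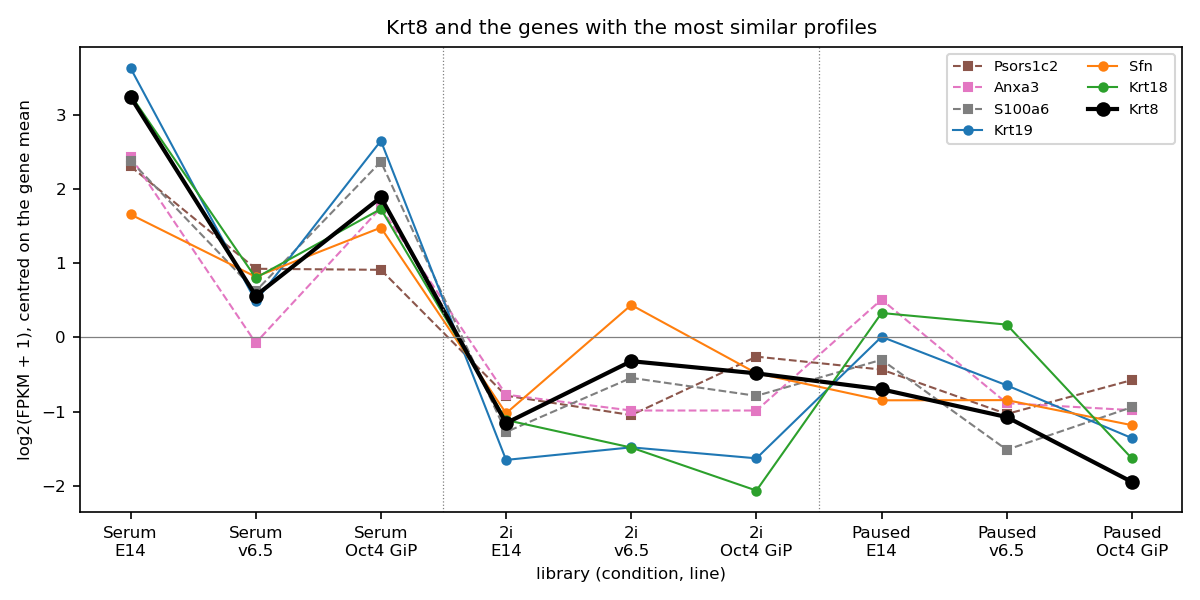
log2(FPKM + 1) of Krt8, Sfn, Krt18, Krt19 and the 3 nearest other genes, S100a6, Anxa3 and Psors1c2, each centred on its own mean, in the 9 libraries. All curves are highest in the Serum library of E14 and lie lower in 2i and Paused, where Sfn in v6.5 2i and Krt18 in Paused stand above the Krt8 curve.

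The relatives of these genes were counted in lists of other keratins and claudins, tight and adherens junctions, desmosomes, hemidesmosomes and matrix, epithelial genes and transcription factors, mesenchymal genes, other intermediate filaments, the 14-3-3 family and p53 targets. Some genes stand in more than 1 list, and 192 different genes were tested. In Paused against Serum 6 of them rose and 34 fell (limma, adjusted p under 0.05), or 3.13% and 17.7%, beside 7.64% and 10.5% of all tested genes. In 2i against Serum 37 rose and 64 fell, or 19.3% and 33.3%, beside 21.7% and 18.9%. In Paused against 2i 48 rose and 52 fell, or 25% and 27.1%, beside 19.8% and 24.6%. Of the falls in Paused against Serum, 10 were in the list of p53 targets. Of 39 other keratins in the table, 4 passed the filter. Krt17, a keratin of basal and appendage epithelium, fell from 12.5 ± 6.32 FPKM (SD, n = 3) in Serum to 1.04 ± 0.590 in 2i (log2 −2.63 ± 0.48, adjusted p = 0.0075) and was at 8.30 ± 9.60 in Paused. Krt10, a keratin of differentiating epidermis, fell from 2.17 ± 0.12 to 1.19 ± 0.17 in 2i (adjusted p = 0.018, held in 6 of 9 fits without 1 library). In Paused 0 other keratins were called, the largest changes being −0.90 for Krt17 (adjusted p = 0.22) and −0.78 for Krt42 (adjusted p = 0.37, and 0.031 in place of −0.78 without the E14 Serum library).

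Of 20 other claudins, 3 were tested. Cldn9, the close relative and chromosomal neighbour of Cldn6, fell from 1.18 ± 0.50 FPKM in Serum to 0.129 ± 0.099 in 2i (adjusted p = 0.0032) and stood at 0.854 ± 0.204 in Paused, higher than in 2i (adjusted p = 0.0061). Cldn3 was at 2.95 ± 0.78, 2.46 ± 1.76 and 5.99 ± 1.13 in Serum, 2i and Paused and rose from 2i to Paused (adjusted p = 0.020), a call that held in 6 of 9 fits that left out 1 library. Cldn9 had its lowest mean in 2i, as Cldn6, Cldn7 and Epcam did. Its levels lay near the filter of FPKM of 1, which it passed through Serum and Paused libraries without any 2i library. Nothing is therefore read from its calls against 2i.

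The 35 tight junction genes split in direction, with 7 up and 11 down in 2i against Serum, 1 up and 4 down in Paused against Serum, and 8 up and 11 down in Paused against 2i. The shares called higher, 20.0%, 2.86% and 22.9%, and lower, 31.4%, 11.4% and 31.4%, stood beside the shares of all genes given above. Cgn, the junction plaque protein cingulin, was at 16.1 ± 4.83 FPKM in Serum, 1.71 ± 0.102 in 2i and 11.4 ± 2.63 in Paused; it fell by 2.62 ± 0.16 (log2, SE) in 2i (adjusted p = 0.00066) and rose by 2.17 ± 0.16 from 2i to Paused (adjusted p = 0.00055). Lsr, the lipolysis-stimulated receptor of tricellular junctions, fell by 1.45 ± 0.26 in 2i (adjusted p = 0.0069). Inadl, a polarity scaffold now called Patj, rose by 1.35 ± 0.22 from 2i to Paused (adjusted p = 0.0048). In the same comparison Llgl2, a polarity protein of the basolateral side, fell by 1.43 ± 0.36 (adjusted p = 0.020, held in 5 of 9 fits without 1 library), and Jam3, a junctional adhesion molecule, fell by 1.31 ± 0.21 (adjusted p = 0.0044). In Paused against Serum, Shroom3, which drives apical constriction, and Amotl1, an angiomotin, fell by 1.14 and 0.97 (adjusted p of 0.014 and 0.012, each held in 5 of 9 fits without 1 library).

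Among 22 adherens junction genes, 5 fell and 4 rose in 2i, or 22.7% and 18.2%, beside 18.9% and 21.7% of all tested genes. Those that rose were Arvcf, Pvrl1, Plekha7 and Lmo7, by 1.27, 1.135, 0.68 and 0.63 (adjusted p of 0.025, 0.0021, 0.011 and 0.026). Cdh3, or P-cadherin, fell in 2i from 12.8 ± 1.67 to 3.93 ± 1.46 FPKM (adjusted p = 0.0038) and was at 17.5 ± 4.50 in Paused, higher than in 2i (adjusted p = 0.0016). Ajuba and Zyx, LIM proteins that link junctions to actin, fell by 1.61 and 2.14 in 2i (adjusted p of 0.00098 and 0.0019). Cdh2, or N-cadherin, fell by 1.35 in 2i (adjusted p = 0.012). In Paused against Serum 0 of these genes fell, and Mllt4, which encodes afadin, rose by 0.68 ± 0.12 (adjusted p = 0.020), a sign that turns to −0.23 on the authors' normalized scale. The catenins that bind E-cadherin, looked up after their values were seen, were not called in any comparison: Ctnnb1 was at 223 ± 6.73, 241 ± 21.1 and 245 ± 13.6 FPKM in Serum, 2i and Paused, and Ctnna1 at 167 ± 27.2, 145 ± 20.1 and 171 ± 8.23.

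Desmosomes anchor keratin filaments to the cell surface, and 7 of 13 listed genes were tested. In 2i 5 fell and 1 rose, and in Paused 3 fell and 0 rose against Serum. The shares that fell, 71.4% and 42.9%, stood beside 18.9% and 10.5% of all tested genes. Perp, a desmosomal membrane protein that p53 also regulates, fell from 33.5 ± 5.202 FPKM in Serum to 11.5 ± 5.501 in 2i and 9.74 ± 0.892 in Paused (adjusted p of 0.0084 and 0.020). Dsp, the desmoplakin that ties keratins to the plaque, and the plakophilin Pkp2 fell in Paused by 0.97 and 0.91 (adjusted p of 0.021 and 0.043). Dsg2, a desmosomal cadherin, was the gene that rose in 2i, by 1.97 ± 0.19 (adjusted p = 0.0015). The calls of Perp, Dsp and Pkp2 in Paused held in 2 to 4 of 9 fits without 1 library, with adjusted p of up to 0.15.

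In the epithelial list of 31 tested genes, 15 fell and 5 rose in 2i, 5 fell and 1 rose in Paused, and 11 rose and 6 fell from 2i to Paused. The shares that fell were 48.4%, 16.1% and 19.35%, and those that rose 16.1%, 3.23% and 35.5%, in that order. They stand beside the shares of all genes given above. Esrp1, the splicing regulator of epithelial cells, was at 21.0 ± 8.10 FPKM in Serum, 0.772 ± 0.255 in 2i and 25.2 ± 3.62 in Paused, with a fall of 3.57 ± 0.19 (log2, SE) in 2i (adjusted p = 0.00056) and a rise of 3.89 ± 0.19 from 2i to Paused (adjusted p = 0.00026). Ddr1, a collagen receptor kinase, fell by 2.20 in 2i and fell by 1.004 in Paused (adjusted p of 0.0015 and 0.028, the second up to 0.12 without 1 library). Spint1 went the other way, rising by 1.69 ± 0.15 in 2i and falling by 1.73 ± 0.15 from 2i to Paused (adjusted p of 0.0013 and 0.00079). Cd9, St14, Sh3bgrl2 and Erbb2 also rose in 2i, and Spint2 was the gene that rose in Paused against Serum.

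Grhl2, a grainyhead factor that activates junction genes such as Cdh1 and Cldn4 in other epithelia, had the largest changes of the 21 tested epithelial transcription factors in both comparisons with 2i. Of these factors 1 rose and 5 fell in Paused against Serum, 5 rose and 9 fell in 2i against Serum, and 6 rose and 5 fell in Paused against 2i. The shares that rose were 4.76%, 23.8% and 28.6%, and those that fell 23.8%, 42.9% and 23.8%, beside the shares of all genes given above. Grhl2 was at 18.5 ± 0.419 FPKM in Serum, 2.33 ± 1.16 in 2i and 37.2 ± 8.49 in Paused. It fell by 2.61 ± 0.20 in 2i (adjusted p = 0.00090) and rose by 3.56 ± 0.20 from 2i to Paused (adjusted p = 0.00031), and both calls held in 9 of 9 fits without 1 library. In Paused against Serum, a value looked up after the others were seen, it was the factor that rose, by 0.95 ± 0.20 (adjusted p = 0.028), a call that held in 4 of 9 such fits and a change of 0.051 on the authors' normalized scale. Cdh1 and Cldn4 changed by 0.12 and −0.52 in 2i, and the part of Grhl2 in their levels was not tested. Elf3, an epithelial ETS factor, went the other way, rising by 2.16 ± 0.19 in 2i (adjusted p = 0.0013) and falling by 2.58 ± 0.19 from 2i to Paused (adjusted p = 0.00055). Gata2, Jun and Tfap2c, factors of trophectoderm or of AP-1, fell in Paused against Serum by 1.11, 0.97 and 0.95 (adjusted p of 0.014, 0.027 and 0.032, each held in 2 to 5 of 9 fits without 1 library).

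**Figure D5:**
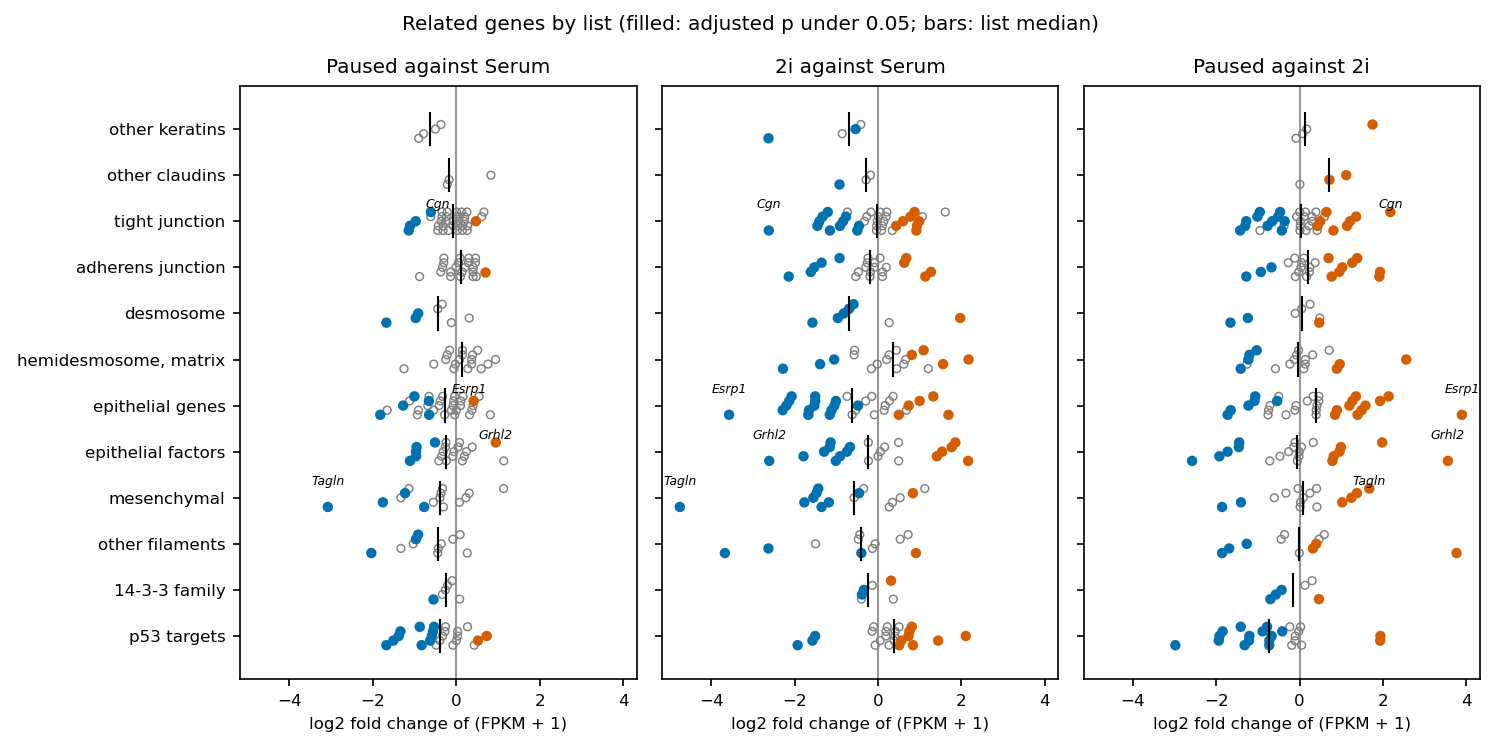
Log2 fold change of FPKM + 1 of the tested genes in each related list for the 3 comparisons; filled points have a limma adjusted p under 0.05 (orange higher, blue lower), and black bars mark list medians. Esrp1, Grhl2 and Cgn lie far to the left in 2i against Serum and far to the right in Paused against 2i, while most lists hold filled points on both sides.

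Of 15 mesenchymal genes tested, 8 fell and 1 rose in 2i, and 4 fell and 0 rose in Paused against Serum. The shares that fell, 53.3% and 26.7%, stood beside 18.9% and 10.5% of all tested genes. Col1a1, which fell in both, passed the filter through its Serum libraries alone. Tagln, the smooth muscle protein transgelin, fell from 64.0 ± 46.2 FPKM in Serum to 1.01 ± 0.393 in 2i and 5.73 ± 3.05 in Paused (adjusted p of 0.0016 and 0.015). Acta2, smooth muscle actin, fell by 1.47 in 2i (adjusted p = 0.0056) and fell by 1.23 in Paused (adjusted p = 0.024). Both are also in the fibroblast marker list given above. The Paused calls of both held in 4 or 5 of 9 fits without 1 library.

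Of 11 other intermediate filament genes tested, 3 fell and 1 rose in 2i, and 3 fell and 0 rose in Paused against Serum; 27.3% thus fell in each, beside 18.9% and 10.5% of all genes. Nes, the nestin of neural progenitors, fell from 28.2 ± 5.04 FPKM in Serum to 4.07 ± 2.51 in 2i and 6.23 ± 1.99 in Paused (adjusted p of 0.0023 and 0.015). Ina, alpha-internexin, fell from 91.1 ± 9.32 to 6.56 ± 2.93 in 2i (adjusted p = 0.00059) and was at 96.9 ± 3.71 in Paused. Ina thus followed the course of Cldn6 and Epcam, and Nes that of the keratins, in their mean levels.

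Sfn belongs to the 14-3-3 family, and its 6 tested relatives changed far less against Serum. Ywhab fell by 0.57 ± 0.14 in Paused (adjusted p = 0.037), and in 2i Ywhah and Ywhae fell by 0.38 and 0.34 while Ywhag rose by 0.31 (adjusted p of 0.028, 0.022 and 0.024), a rise that turns to −0.055 on the authors' normalized scale. These 4 calls held in 2 to 5 of 9 fits without 1 library. In Paused against 2i, Ywhaz and Ywhag fell by 0.70 and 0.57 (adjusted p of 0.014 and 0.0029), beside −0.60 for Sfn. Of 23 tested p53 targets, 10 fell and 2 rose in Paused against Serum, and 3 fell and 8 rose in 2i. The shares that fell were 43.5% and 13.0%, and those that rose 8.70% and 34.8%, beside the shares of all genes given above. Phlda3, a p53-induced repressor of Akt, fell by 1.38 ± 0.14 in Paused (adjusted p = 0.0099). Cdkn1a, the cell cycle inhibitor p21, rose by 2.11 ± 0.17 in 2i (adjusted p = 0.00090), and Sfn stood at −1.67 there. The part of p53 in these levels was not tested. Of 18 tested hemidesmosome and matrix genes, 4 rose and 3 fell in 2i, or 22.2% and 16.7%, beside 21.7% and 18.9% of all tested genes. Among them Lamb1 fell by 2.28 ± 0.23 (adjusted p = 0.0016) and Nid1 rose by 2.17 ± 0.40 (adjusted p = 0.008). In Paused against Serum 0 were called, and the largest change was −1.25 for Itga3 (adjusted p = 0.074).

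The calls in Paused against Serum rest on few libraries. The fit on all libraries called 2311 genes. Fits without E14, v6.5 or Oct4 GiP Serum called 729, 787 and 12, and fits without a Paused library 38 (E14), 38 (v6.5) and 16 (Oct4 GiP). These are totals of each fit, and how many of them were among the 2311 was not counted. Without a 2i library of E14, v6.5 or Oct4 GiP, 3223, 2229 and 1483 were called. For the 2i comparison the 5161 calls went to between 2969 and 5436.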

How the data were processed

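Of the columns in the deposited file, 9 hold FPKM as the authors' run of Cuffnorm on mm10 gave it, per the submitters' processing notes. Another 9 columns hold a normalized signal, which the authors deposited too and whose making was not stated; it equals FPKM times 1 constant per library. Aligner, annotation, strand setting and read counts were not given in the sources used here, so library depth is unknown. All 18 columns matched a library by name (0 without a sample). Of 29801 rows, 5644 without a gene name (52.8% to 64.0% of a library's summed FPKM) and 113 repeats were left out, which leaves 24044.

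Genes with FPKM of 1 or more in 3 libraries (12711) were fitted on log2(FPKM + 1) with limma 3.58.1 (trend, R 4.3.3), with condition and line as terms and 4 residual degrees of freedom; Benjamini-Hochberg adjustment ran over all of them, with a threshold of 0.05. The line was a block because each line stands in every condition. Deviations from condition means correlated at −0.001 to 0.401 within a line and −0.243 to 0.094 between lines. The script was tested on simulated data. An exact permutation of 3 against 3 cannot go below 0.1. Members and lists were chosen with earlier results of these data known. From each list and comparison up to 4 called genes of largest change were eligible to be named (2 where none was called), and the 8 nearest profiles of Krt8 and Cdh1 (mean FPKM of 5 or more). Nearness is the root mean square difference of centred log2 profiles. Positions come from the mm10 annotation given, promoters from RefSeq. Tables and figures used Python 3.11.15, pandas 2.3.3 and matplotlib 3.10.9. Alternatives were a pseudocount of 0.1, no filter, a filter of 5, the authors' scale, median centring, no block and leaving out each library.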

Additional observations from a re-analysis of the deposited data

Results flagged for a closer look

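In 6 of the 10 genes the lines moved in opposite directions in at least 1 comparison, as did 70.3% of all tested genes. By comparison it was 2, 2 and 4 of the 10 for Paused against Serum, 2i against Serum and Paused against 2i, beside 37.6%, 35.5% and 31.2% of all tested genes. Values are the range over the 3 lines of the log2(FPKM + 1) difference; with 1 library per line and condition, none of these differences between lines was tested. Cldn4 ranged over 0.87 in Paused against Serum, lower in E14 and higher in v6.5 and Oct4 GiP, over 1.44 in 2i against Serum, higher in v6.5 alone, and over 1.22 in Paused against 2i, where v6.5 was at −0.01. Epcam ranged over 0.91 in Paused against Serum, with v6.5 at −0.04 and the other lines higher. Cdh1 ranged over 0.26 in 2i against Serum, with v6.5 at −0.03. Between Paused and 2i, Krt8 ranged over 1.92, higher in Paused in E14 and lower in v6.5 and Oct4 GiP, Sfn over 1.46 with the same lines on each side, and Krt7 over 0.54, higher in v6.5 alone.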

How the results depend on the processing

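With a pseudocount of 0.1 the median change of the 10 genes in Paused against Serum went from −1.10 to −1.64. On the authors' normalized scale the medians were −2.15, −2.54 and 0.36 in Paused against Serum, 2i against Serum and Paused against 2i, the Cldn4 and Epcam changes in Paused were −0.73 and −0.41, the Cdh1 change in 2i −0.25, Mllt4 in Paused −0.23 and Ywhag in 2i −0.055. That scale called 9827 genes in Paused against Serum and 63 between lines (191 in FPKM). Among the related lists it called 0 higher and 158 lower in Paused against Serum, 23 higher in 2i against Serum, and 29 higher and 92 lower in Paused against 2i. Without a filter 10 genes were called between lines and 21 related genes lower in Paused; with an FPKM filter of 5, 39 related genes were lower in 2i. Without the replicate block, that is without the paired term, 3 related genes were higher in Paused (6 with it) and 8 genes were called between lines; 1602, 4368 and 4797 genes were called in the 3 comparisons.

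Leaving out 1 library gave 12 to 3223 genes in Paused against Serum, 2969 to 5436 in 2i against Serum, 3543 to 5611 in Paused against 2i and 7 to 71 between lines. Related genes called in Paused against Serum then ran from 0 to 10 higher and from 0 to 41 lower. The median of the 10 genes in Paused against 2i ran from 0.38 (without E14 2i) to 0.91. Cldn4 in Paused ran from −0.001 to 0.50, Krt7 in Paused against 2i from −0.30 to 0.044, and Krt42 in Paused from −1.39 to 0.031. In these fits a line or condition rests on fewer libraries and the spread is pooled over the others. The drops of the keratins, Sfn, Cldn6 and Cldn7 from Serum kept their direction under each of the alternatives.

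Limits: the table gives no counts, so precision at low FPKM (Krt7, and Krt19 in 2i) is unknown. Each condition has 1 library per line, so a response that differs between lines has no test. The scale between conditions is set by the authors' constant or by FPKM alone, and how the constant was made was not given in the sources used here.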

Other observations

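Krt7, Krt8 and Krt18 lie on chromosome 15. In 2i alone, the 470 tested genes of this chromosome were lower in v6.5 and Oct4 GiP than in E14, with median differences of −0.27 and −0.24 in log2(FPKM + 1), while in Serum and Paused the medians were between −0.05 and 0.01. In 2i, Krt7 and Krt18 were highest in E14 and Krt8 was lowest there. The part of this shift in the keratin levels was not tested. Ovol2, an epithelial zinc finger factor named here after its values were seen, was at 3.95 ± 1.64 FPKM (SD, n = 3) in Serum, 1.44 ± 0.689 in 2i and 3.77 ± 1.51 in Paused, with limma adjusted p of 0.0023 for 2i against Serum and 0.0021 for Paused against 2i. The Snail and Zeb genes, whose products bind the E-box letters found in 8 of the 9 promoter windows, were low: Snai1 was at 2.91 ± 0.519, 1.86 ± 0.349 and 2.05 ± 0.513 FPKM in Serum, 2i and Paused, and Zeb1 at 1.70 ± 0.80, 3.70 ± 0.281 and 2.11 ± 0.566. Zeb1 rose in 2i against Serum (log2 0.84 ± 0.25, adjusted p = 0.038), and Snai1 fell (−0.45 ± 0.12, adjusted p = 0.023). Both genes were also named after their values were seen, and these calls held in 3 and 4 of 9 fits that left out 1 library, with adjusted p of up to 0.11. The part of these factors in the levels of the 10 genes was not tested.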
